A study of Arabidopsis thaliana with 6 samples.

Results

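Transcripts of the plastid genome were described in rosettes of Arabidopsis thaliana that overexpress plant cysteine oxidase 1 (PCO1) and in wild-type rosettes. They were taken as the probe sets that the platform annotation pairs with exactly 1 gene and whose symbol is that of a plastid-encoded photosynthesis, RNA polymerase or housekeeping gene, written in lower case. This gave 54 probe sets for 54 genes, out of 22746 tested probe sets. All 54 genes stand on the plastid genome in the RefSeq gene table of assembly TAIR10.1. Symbols of the same style that belong to nuclear genes (NdhL, NdhN and NdhS) were left out, as were ycf1, ycf2 and ndhB, whose probe sets are paired with 2 gene copies each.

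The series compares wild type with the genotype 35S:PCO1, each as 3 arrays of whole rosettes kept in air (normoxia). In 35S:PCO1 a viral promoter that is active in nearly all tissues drives PCO1, an oxygen-dependent enzyme that marks the group VII ethylene response factors for degradation; the sample titles call the transgene CDO1. Both genotypes grew with 8 h of light at 22 °C and 16 h of darkness at 18 °C and were harvested 2 h into the day, at an age given as 4 weeks in one label and 5 weeks in another. The labels do not say how many independent lines the overexpressor stands for, nor whether a replicate is 1 plant or a pool, so p-values reflect the spread among these arrays only, which could be technical.

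The plastid genome of land plants keeps the genes for core subunits of the photosynthetic complexes, for the large subunit of Rubisco and for a bacterial-type RNA polymerase, while the remaining subunits are encoded in the nucleus and imported. Most plastid genes are transcribed in multi-gene units by the plastid-encoded polymerase with nuclear sigma factors, and some housekeeping units by a phage-type polymerase from the nucleus. Their transcripts are cut, edited and spliced afterwards, and short A-rich tails mark plastid RNA for decay. Standard labelling for this kind of array starts at poly(A) tails, so a plastid signal need not follow the amount of mature plastid RNA. The level of a probe set also reflects its own probes, so levels of different probe sets are not read as relative amounts of transcript. In whole rosettes, fewer plastid-rich cells and less plastid RNA per cell cannot be told apart.

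No plastid transcript passed the test between the genotypes, and most lay slightly lower in 35S:PCO1. The median difference of the 54, as 35S:PCO1 minus wild type, was -0.12 on the log2 scale, a 1.09-fold lower signal, against 0.0036 over all tested probe sets. Of the 54, 42 lay below 0 and 12 above (77.8% below 0, against 48.4% of all tested probe sets). The differences ran from -0.45 for rpoC1 to 0.49 for ndhF. Differences were tested with limma's moderated statistic, at a Benjamini-Hochberg adjusted p of 0.05 across the whole table, which called 0 of the 54 and 0.84% of all tested probe sets. The smallest adjusted p among the 54 was 0.0560, for psaI.

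At an unadjusted p under 0.05 there were 16 plastid transcripts, 5 higher and 11 lower, or 29.6% of the 54 against 13.4% of all tested probe sets. The 5 higher make 9.26% (5.89% over all) and the 11 lower make 20.4% (7.49% over all). The 5 higher (petD, ndhF, ndhG, rpoB and petN) had mean signals from 4.37 to 8.29, all below the median of 9.44 over the 54. Of the 11 lower, psbA, atpF, rpoC1 and ndhK also lay below that median, and the others above it. The 3 arrays of one genotype lay wholly above or below the other 3 for 12 of the 54, which is 22.2% against 18.4% of all tested probe sets. Of these 4 were higher (9.07% over all) and 8 lower (9.31% over all). Members are measured on the same 6 arrays and many share a transcript, so these counts are not counts of independent events. Of the 54 limma 95% intervals, which are not adjusted for their number, 47 lay within 0.5 of 0 on both sides, which is 87% against 97.3% of all tested probe sets.

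**Figure D1:**
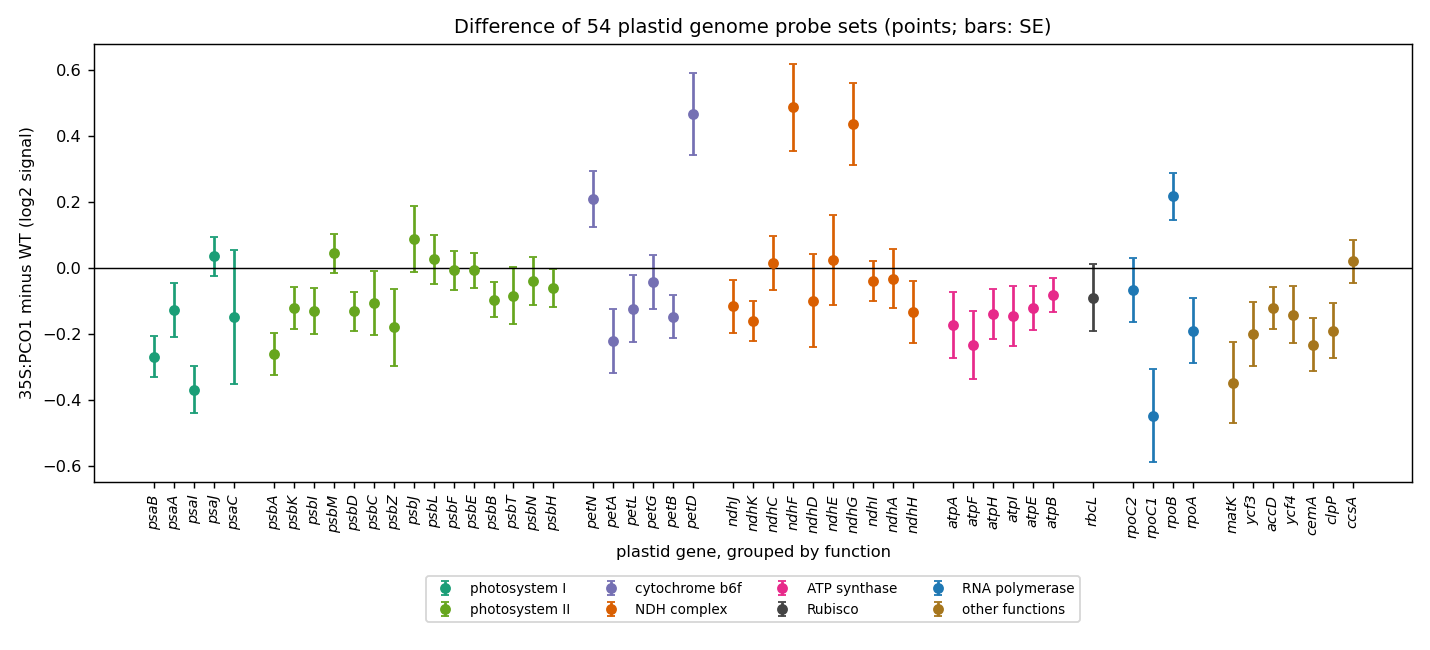
Difference in log2 signal between 35S:PCO1 and wild type (y axis) for each of 54 plastid genome probe sets (x axis), coloured by function; points are differences of means (n = 3 arrays per genotype) and bars are limma SEs. Of the 54 points 42 lie below 0, and petD, ndhF and ndhG stand above the others between 0.44 and 0.49.

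In plastid signal, single wild-type arrays lay further apart than the means of the genotypes did. Relative to each member's mean over the 6 arrays, the mean over the 54 members was 0.144, 0.086 and -0.116 in wild-type replicates 1, 2 and 3. In 35S:PCO1 replicates 1, 2 and 3 it was -0.017, -0.095 and -0.0022. Thus wild-type replicates 1 and 2 lay above all 35S:PCO1 arrays and wild-type replicate 3 lay below them all, and the group means were 0.038 ± 0.136 and -0.038 ± 0.050 (SD, n = 3 each). The wild-type arrays spanned 0.259, and 35S:PCO1 minus wild type was -0.076. A range of single arrays and a difference of means are unlike measures. Over all tested probe sets the range was likewise the larger, at 0.0225 against a difference of -0.0048.

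Wild-type replicate 3 was the lowest wild-type array for 47 of the 54 members (87%, against 30.9% of all tested probe sets), and replicate 1 was the highest for 37 (68.5%, against 32%). The difference between the genotypes was smaller in size than the gap between the highest and lowest wild-type array for 46 of the 54 members, or 85.2%, against 79.2% of all tested probe sets. Replicate SDs of the 54 had a median of 0.136 for wild type and 0.0745 for 35S:PCO1, whereas over all tested probe sets these SDs were 0.0752 and 0.0661, respectively.

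The 25S ribosomal RNA control of the array was 8.88, 8.66 and 8.48 in replicates 1, 2 and 3 of wild type and 7.39, 7.54 and 7.30 in 35S:PCO1. As a rough guide to RNA integrity, 6 pairs of control probe sets at the 3' and 5' ends of transcripts were used. The pairs stand for actin, GAPDH and ubiquitin, so several share a transcript. Their mean log2 gap was 0.761, 0.688 and 0.581 in replicates 1, 2 and 3 of wild type and 0.579, 0.628 and 0.547 in 35S:PCO1. Both measures were highest in wild-type replicate 1, as the plastid mean was, and lowest among the wild-type arrays in replicate 3. Between the genotypes the order was another one. The 25S control was lower in every 35S:PCO1 array than in every wild-type array, at a difference of -1.26. The plastid mean, in contrast, was lowest of all 6 arrays in wild-type replicate 3. The 3' to 5' gap overlapped between the genotypes, at a difference of -0.092. The part of both measures in the plastid values was not tested. The array medians lay between 6.11 and 6.15.

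**Figure D2:**
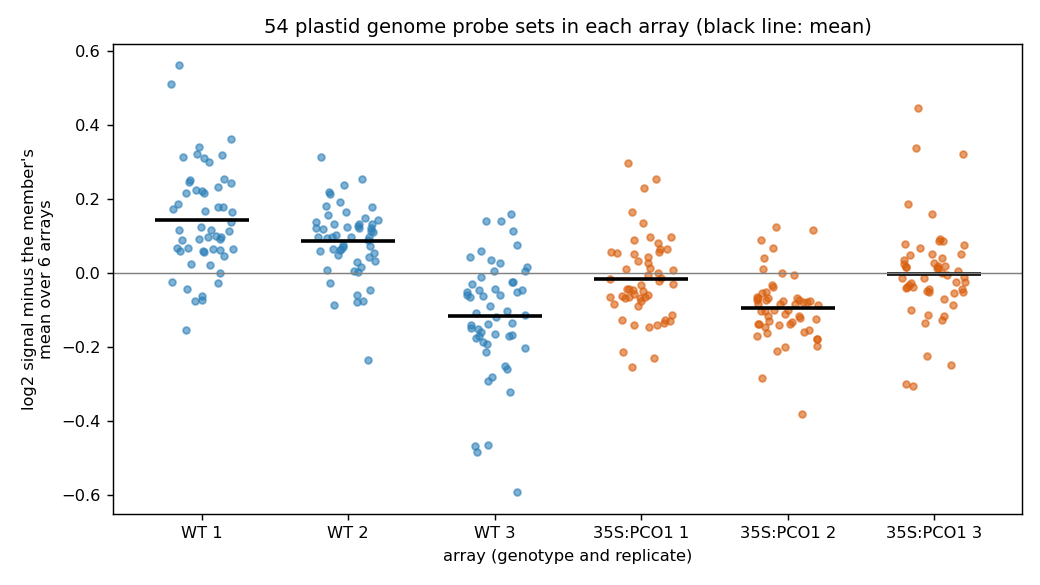
Log2 signal of each of the 54 plastid genome probe sets minus that probe set's mean over the 6 arrays (y axis), for each array (x axis, genotype and replicate); every point is 1 probe set and the black line is the mean. The lines stand at 0.144 and 0.086 in wild-type replicates 1 and 2, at -0.116 in wild-type replicate 3, and between -0.095 and -0.0022 in 35S:PCO1.

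What the genotypes' difference amounts to therefore depends on single wild-type arrays. Without wild-type replicate 3 the median difference of the 54 was -0.18, 46 lay below 0, and 30 were lower at an unadjusted p under 0.05 (6.91% of all tested probe sets were). In that comparison 1 member passed the test (0.655% of all did): matK, which encodes a maturase that helps to splice plastid introns, at -0.51 (limma adjusted p = 0.0221). Without wild-type replicate 1 the median was -0.05, 36 lay below 0 and 7 were lower at an unadjusted p under 0.05 (8.78% of all were). There 1 member passed as well (2.15% of all did): ndhG, at 0.58 (limma adjusted p = 0.0144). Without wild-type replicate 2 the lower members at an unadjusted p under 0.05 numbered 5 (5.67% of all were), and without replicates 1, 2 and 3 of 35S:PCO1 they numbered 6, 6 and 9 (5.59%, 7.41% and 5.01% of all). Leaving out any one of these 4 arrays gave no adjusted call among the 54. Of all tested probe sets, 0.022% passed without wild-type replicate 2, and 0.022%, 0.462% and 0.022% without replicates 1, 2 and 3 of 35S:PCO1. With so few calls over the whole table, the absence of calls among the 54 says little about the plastid members.

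With array weights, which give wild-type replicate 2 a weight of 4.55 and the other arrays 0.434 to 1.42, 13 of the 54 passed, 3 higher (petD, ndhF and ndhG) and 10 lower. That is 24.1% of the members, against 9.74% of all tested probe sets in that comparison. As wild-type replicates 1 and 3 had weights of 0.523 and 0.434, the wild-type mean there rests mostly on replicate 2. A pass with array weights is thus largely a comparison with that single wild-type array.

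Photosystem I passes electrons from plastocyanin to ferredoxin, and 5 of its plastid genes were measured. Their median difference was -0.15, with 4 below 0 and none past the test. psaI, for a small membrane subunit, had 10.18, 10.00 and 9.98 (log2 signal) in replicates 1, 2 and 3 of wild type and 9.74, 9.59 and 9.74 in 35S:PCO1. All its 35S:PCO1 arrays lay below all wild-type arrays, with a difference of -0.37 (SE 0.07, limma adjusted p = 0.0560), or 1.29-fold. It passed the test with a trended robust prior (adjusted p = 0.0314, where 1.07% of all tested probe sets passed), with array weights (0.00815) and with the replicate number as a block (0.0437, 1% of all), and at a threshold of 0.1 (1.87% of all did). Its adjusted p was 0.332 with an ordinary t statistic, by which 0 of all tested probe sets passed.

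psaB, for a reaction centre core protein, had 12.40, 12.40 and 12.25 in wild type and 12.10, 12.01 and 12.13 in 35S:PCO1. These groups did not overlap either, and the difference was -0.27 (SE 0.06, limma adjusted p = 0.1004). It passed with a trended robust prior (adjusted p = 0.0458) and with array weights (0.00657). psaA, for the partner core protein from the same transcript, differed by -0.13 with overlapping groups.

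psaC, for the subunit that holds terminal iron-sulfur clusters, had 6.65, 6.22 and 5.62 in wild type and 6.01, 5.94 and 6.11 in 35S:PCO1, so its 35S:PCO1 arrays lay inside a wild-type range of 1.03. Its difference was -0.15 (SE 0.20). The difference of psaJ, for another small subunit, was 0.04. Without wild-type replicate 3 the median of the 5 genes was -0.32.

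Photosystem II, which splits water, was represented by 15 genes with a median difference of -0.08, 12 of them below 0 and none past the test. That median was -0.018 without wild-type replicate 1 and -0.13 without wild-type replicate 3. psbA encodes the reaction centre protein that is damaged by light and continually replaced. Its signal was 9.11, 9.05 and 8.91 in replicates 1, 2 and 3 of wild type and 8.75, 8.75 and 8.79 in 35S:PCO1. The groups did not overlap, at a difference of -0.26 (SE 0.06, limma adjusted p = 0.117), and array weights gave an adjusted p of 0.00775.

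psbM, for a small subunit, had 12.52, 12.47 and 12.44 in wild type and 12.55, 12.43 and 12.58 in 35S:PCO1. These arrays overlapped, and the difference was 0.04 (SE 0.06). psbB and psbD, for an inner antenna protein and the second reaction centre protein, differed by -0.10 and -0.13, each with groups that did not overlap. The genes for the cytochrome of photosystem II, psbE and psbF, both differed by -0.01, with 95% intervals from -0.13 to 0.11 and from -0.14 to 0.13. The other members of this complex lay between -0.18 for psbZ and 0.09 for psbJ.

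The cytochrome b6f complex links the photosystems, and its 6 plastid genes held differences of either sign with a median of -0.08, which became -0.00084 without wild-type replicate 1 and -0.15 without wild-type replicate 3. petD, for subunit IV, had 5.56, 5.64 and 5.25 in replicates 1, 2 and 3 of wild type and 5.97, 5.72 and 6.16 in 35S:PCO1. All its 35S:PCO1 arrays lay above all wild-type arrays, with a difference of 0.47 (SE 0.12, limma adjusted p = 0.149), or 1.38-fold. petN, for a small subunit that the complex needs to assemble, had 8.34, 8.20 and 8.00 in wild type and 8.37, 8.33 and 8.47 in 35S:PCO1. Its groups overlapped, since wild-type replicate 1 lay just above 35S:PCO1 replicate 2, and the difference was 0.21 (SE 0.09, limma adjusted p = 0.329).

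petB, for the cytochrome that gives the complex its name, had 11.82, 11.84 and 11.73 in wild type and 11.59, 11.59 and 11.76 in 35S:PCO1. Only 35S:PCO1 replicate 3 reached into the wild-type range, and the difference was -0.15 (SE 0.07). petA, for cytochrome f, differed by -0.22 (SE 0.10), and the small-subunit genes petL and petG by -0.12 and -0.04. None of the 6 passed the test.

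The NDH complex returns electrons from ferredoxin to the plastoquinone pool around photosystem I. Of its 10 measured plastid genes 4 lay above 0 and 6 below, with a median of -0.04 and none past the test. The median of the 10 was -0.11 without wild-type replicate 3 and, with the opposite sign, 0.017 without 35S:PCO1 replicate 2. It was -0.0012 and -0.0028 without wild-type replicates 1 and 2. ndhF, for a membrane subunit, had 6.79, 6.77 and 6.26 in replicates 1, 2 and 3 of wild type and 7.15, 6.97 and 7.17 in 35S:PCO1. The groups did not overlap, at a difference of 0.49 (SE 0.13, limma adjusted p = 0.1496). Here wild-type replicate 3 lay 0.53 below the highest wild-type array, which is as much as the difference itself.

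ndhG, for another membrane subunit, had 7.44, 7.14 and 6.90 in wild type and 7.61, 7.47 and 7.72 in 35S:PCO1. These groups did not overlap, at a difference of 0.44 (SE 0.12, limma adjusted p = 0.171). Both ndhF and ndhG passed with array weights (adjusted p = 0.0267 and 0.00790). ndhI, for an iron-sulfur subunit, had 12.78, 12.77 and 12.67 in wild type and 12.77, 12.63 and 12.69 in 35S:PCO1, overlapping arrays that differed by -0.04 (SE 0.06). The remaining 7 lay between -0.16 for ndhK and 0.02 for ndhE.

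**Figure D3:**
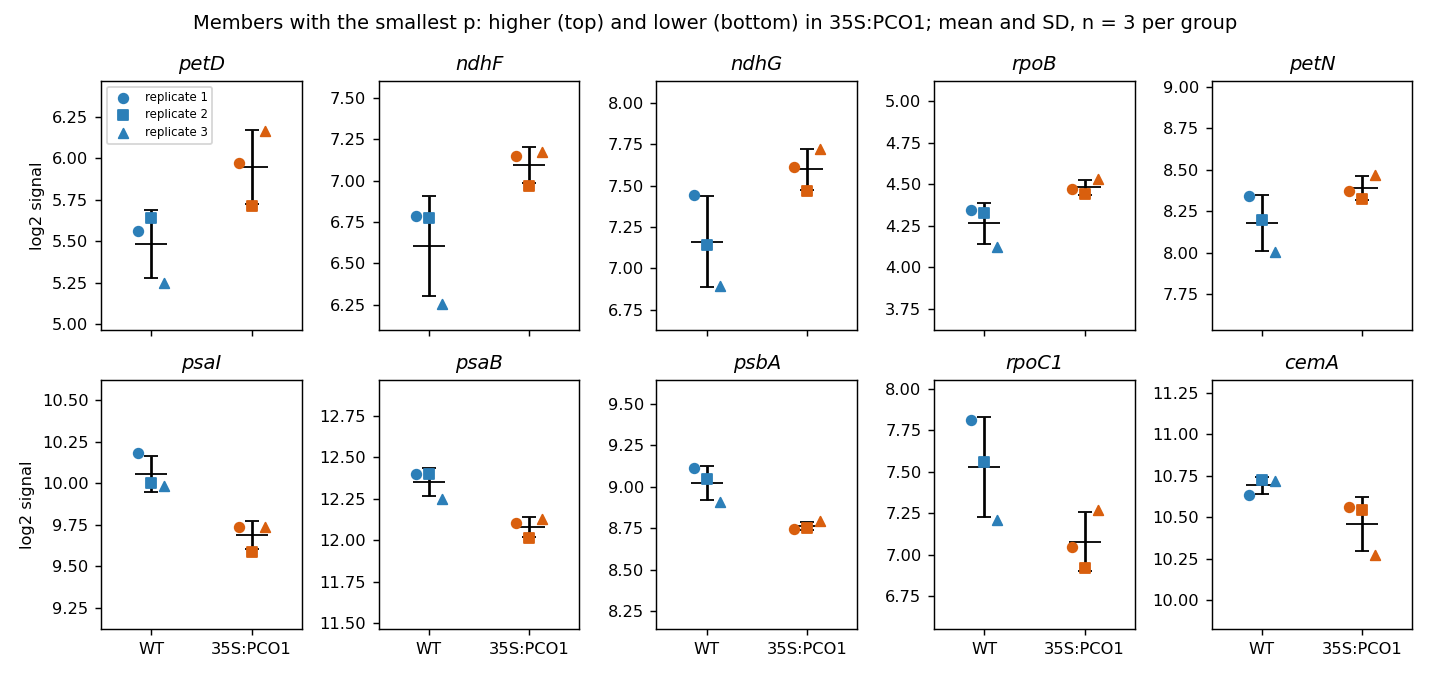
Log2 signal (y axis) in each array of the 5 plastid genes with the smallest p above 0 (top row) and the 5 below 0 (bottom row); symbols mark the replicate number, horizontal bars the mean and error bars the SD (n = 3 per genotype), and every panel spans the same height on the log2 scale. Groups overlap for petN and rpoC1 and do not for petD, ndhF, ndhG, rpoB, psaI, psaB, psbA and cemA.

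All 6 plastid genes of the ATP synthase lay below 0, between -0.23 for atpF and -0.08 for atpB, with a median of -0.14, or -0.24 without wild-type replicate 3. None passed the test. atpB, for the catalytic beta subunit, had 13.45, 13.42 and 13.41 in replicates 1, 2 and 3 of wild type and 13.34, 13.32 and 13.37 in 35S:PCO1. Its groups did not overlap, and the difference of -0.08 (SE 0.05, limma adjusted p = 0.549) was a 1.06-fold one. For atpA (alpha subunit), atpE (epsilon), atpF, atpH and atpI (membrane subunits) the groups overlapped.

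rbcL encodes the large subunit of Rubisco, the enzyme that fixes carbon dioxide. Its signal was 9.32, 9.17 and 8.87 in replicates 1, 2 and 3 of wild type and 9.05, 9.09 and 8.96 in 35S:PCO1. The 35S:PCO1 arrays lay inside the wild-type range, and the difference was -0.09 (SE 0.10, 95% interval from -0.32 to 0.14). Without wild-type replicate 1 it was 0.0078.

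The 4 genes of the plastid-encoded RNA polymerase differed in sign among themselves, and none passed the test. rpoB, for the beta subunit, had 4.35, 4.33 and 4.12 in replicates 1, 2 and 3 of wild type and 4.47, 4.44 and 4.53 in 35S:PCO1. These groups did not overlap, at a difference of 0.22 (SE 0.07, limma adjusted p = 0.228). The mean signal of rpoB, 4.37, was the lowest of the 54 members. For comparison, the 12 dap and lys control probe sets, taken here as a background level, read 3.07 to 3.82. rpoC1, for the beta' subunit, had 7.81, 7.56 and 7.21 in wild type and 7.05, 6.92 and 7.27 in 35S:PCO1. Here 35S:PCO1 replicate 3 lay above wild-type replicate 3, and the difference was -0.45 (SE 0.14, limma adjusted p = 0.212).

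rpoA, for the alpha subunit, had 11.78, 11.72 and 11.37 in wild type and 11.46, 11.41 and 11.41 in 35S:PCO1. Its 35S:PCO1 arrays all lay inside the wild-type range, at a difference of -0.19 (SE 0.10), and it passed with array weights (adjusted p = 0.0336). rpoC2, for the beta'' subunit, differed by -0.07 (SE 0.10).

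The 7 genes of other functions had a median of -0.19, 6 of them below 0, and none passed the test. cemA, for a protein of the inner envelope membrane, had 10.63, 10.73 and 10.72 in replicates 1, 2 and 3 of wild type and 10.56, 10.54 and 10.27 in 35S:PCO1. The groups did not overlap, at a difference of -0.23 (SE 0.08, limma adjusted p = 0.259). matK had 10.05, 10.00 and 9.53 in wild type and 9.45, 9.62 and 9.46 in 35S:PCO1. Wild-type replicate 3 lay among the 35S:PCO1 arrays, which is why leaving it out ended the overlap, and the difference with all arrays was -0.35 (SE 0.12, limma adjusted p = 0.266).

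ccsA, for a protein of cytochrome c assembly, had 11.55, 11.63 and 11.67 in wild type and 11.60, 11.75 and 11.56 in 35S:PCO1. It differed by 0.02 (SE 0.07) with overlapping groups. The assembly factors of photosystem I, ycf3 and ycf4, differed by -0.20 and -0.14. clpP, for a protease subunit, differed by -0.19 and accD, for a subunit of the acetyl-CoA carboxylase of fatty acid synthesis, by -0.12. Without wild-type replicate 1 the median of the 7 was -0.13.

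Genes that share a transcript mostly lay close together in their differences. In 12 textbook transcription units with 2 or more measured members, neighbouring genes gave 30 pairs, and the 2 differences of a pair lay a median of 0.076 apart, against 0.126 over all 1431 pairs of the 54 members. All members lay below 0 in the units of psaA and psaB, of psbD, psbC and psbZ, of psbK and psbI, of atpB and atpE, of atpI, atpH, atpF and atpA, and of psaI, ycf4, cemA and petA. The last of these had a median of -0.23. Ribosomal protein genes lie outside the rule and were not counted, so a unit that holds one is not shown whole. As 77.8% of the 54 members lay below 0, units wholly below 0 would also arise if genes of a unit did not move together. How many to expect was not computed. The 4 genes of the psbE unit lay between -0.01 and 0.09.

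Single genes stood apart from their neighbours in 3 units. In the unit of psbB, psbT, psbH, petB and petD the first 4 genes lay between -0.15 and -0.06 and petD at 0.47. The log2 signal of petD minus that of petB was -6.25, -6.20 and -6.48 in replicates 1, 2 and 3 of wild type and -5.62, -5.87 and -5.60 in 35S:PCO1. These within-array differences did not overlap between the genotypes, with a change of 0.61. The petD probe set was dim, at a mean signal of 5.72 against 11.72 for petB and a median of 9.44 over the 54 members.

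In the ndhH unit ndhG stood at 0.44 between ndhI at -0.04 and ndhE at 0.02. Its log2 signal minus that of ndhI was -5.34, -5.62 and -5.77 in replicates 1, 2 and 3 of wild type and -5.16, -5.16 and -4.97 in 35S:PCO1, again without overlap. In the rpoB unit, rpoC1 minus rpoB was 3.47, 3.23 and 3.09 in wild type and 2.58, 2.48 and 2.74 in 35S:PCO1. That was a change of -0.67, and rpoB was the dimmest of the 54 members. The mean signals of ndhG, 7.38, and rpoC1, 7.30, also lay below the median of 9.44 over the 54 members. The part of low signal in these changes was not tested. The genes that stood apart in these 3 units were singled out after their values were seen.

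Such a within-array difference shows unequal change of the probe sets, not which of them changed. It did not overlap between the genotypes for 7 of the 30 neighbouring pairs (23.3%), against 461 of all 1431 pairs of members (32.2%). An exact two-sided permutation test gave p = 0.1 for each of the 7, the smallest p that 3 arrays against 3 allow. Absence of overlap fixes that p in advance, so the test adds nothing for these pairs.

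**Figure D4:**
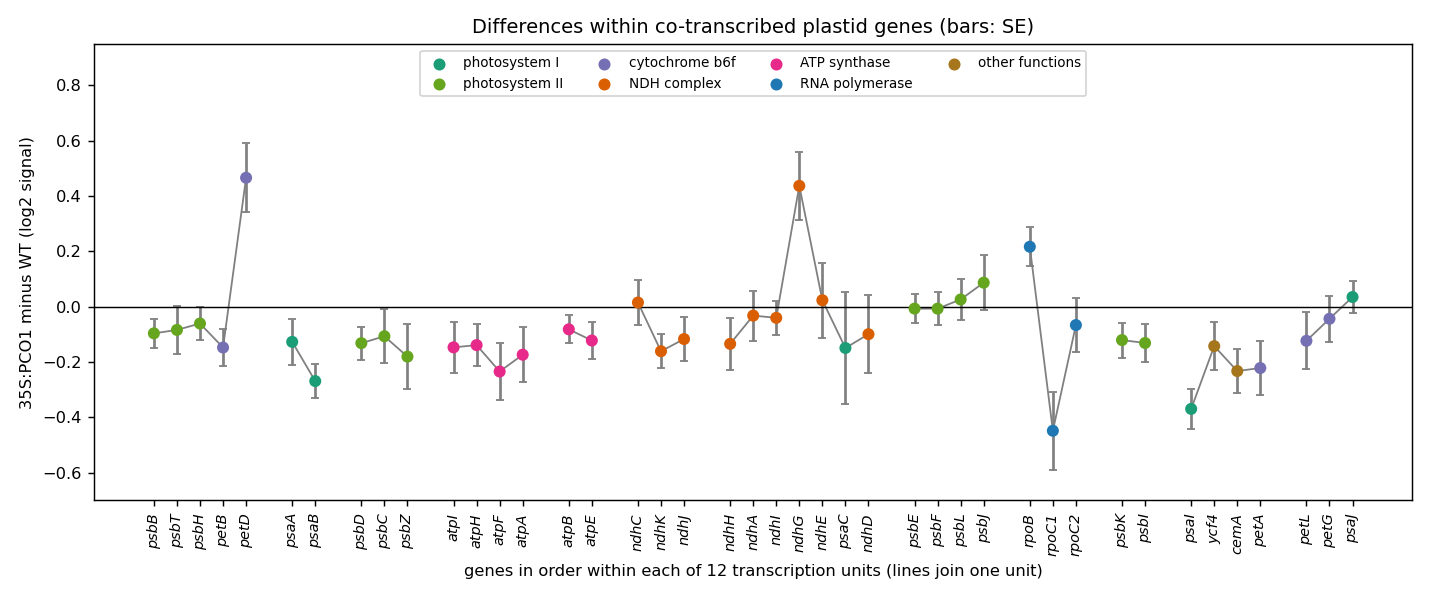
Difference in log2 signal between 35S:PCO1 and wild type (y axis; bars are limma SEs, n = 3 arrays per genotype) for genes in their order within 12 plastid transcription units (x axis), with lines joining genes of a unit and colours for function. petD, ndhG and rpoB stand at 0.47, 0.44 and 0.22, while their neighbours lie between -0.45 (rpoC1) and 0.02 (ndhE).

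The plastid genes for ribosomal proteins, outside the rule, gave no call either. Of 15 measured, 9 lay below 0 (60%, against 48.4% of all tested probe sets) and 6 above, with a median of -0.11. Wild-type replicate 3 was the lowest wild-type array for 14 of them. rps2, for a protein of the small ribosomal subunit, differed by -0.40 (SE 0.11, limma adjusted p = 0.157), rpl16 by -0.35, rps19 by -0.25 and rpl14 by -0.29. The highest difference of the 15 was 0.27, for rps14.

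Transcripts of the mitochondrial genome, the other organelle genome, lay on both sides of 0. Of 18 probe sets for 11 respiratory chain and intron maturase genes, 12 lay above 0 and 6 below, with a median of 0.02 and none past the test, and wild-type replicate 3 was the lowest wild-type array for 6. Their mean relative to each probe set's mean was -0.034, -0.025 and 0.018 in replicates 1, 2 and 3 of wild type and between 0.0063 and 0.018 in 35S:PCO1. Several of these probe sets measure the same gene. They were also dim, with a median signal of 4.98 against 9.44 for the 54 plastid members. The lowest, at 3.13, lay within the 3.07 to 3.82 of the dap and lys controls. A shift could be harder to see at such levels, so the 2 organelle genomes are not directly comparable here.

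The nuclear genes for partners in the same complexes lay close to 0. Of 61 nuclear genes written for photosystem I and II, light harvesting, electron transport and ATP synthase, NDH, Rubisco and the Calvin cycle, 13 had a probe set paired with them alone. None passed the test; 10 lay above 0 and 3 below, with a median of 0.04 and a range from -0.06 to 0.19. NdhL and NdhN, nuclear subunits of the NDH complex, differed by 0.19 (SE 0.07, limma adjusted p = 0.270) and 0.16 (SE 0.05, limma adjusted p = 0.218). PSAN of photosystem I differed by 0.07, PSBY of photosystem II by 0.04 and the antenna gene LHCB4.1 by -0.04.

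The measured genes for plastid transcription and RNA processing were few, 5 of 46 written, and none passed. AT5G15700, which encodes a phage-type RNA polymerase, differed by 0.01. CAF1, a factor for splicing plastid introns, differed by 0.14 (SE 0.14), and CRR21 and LPA66, editing factors for ndhD and psbF transcripts, by -0.02 and -0.01. The nuclear sigma factor genes are among those not named by the annotation and were not analysed here.

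**Figure D5:**
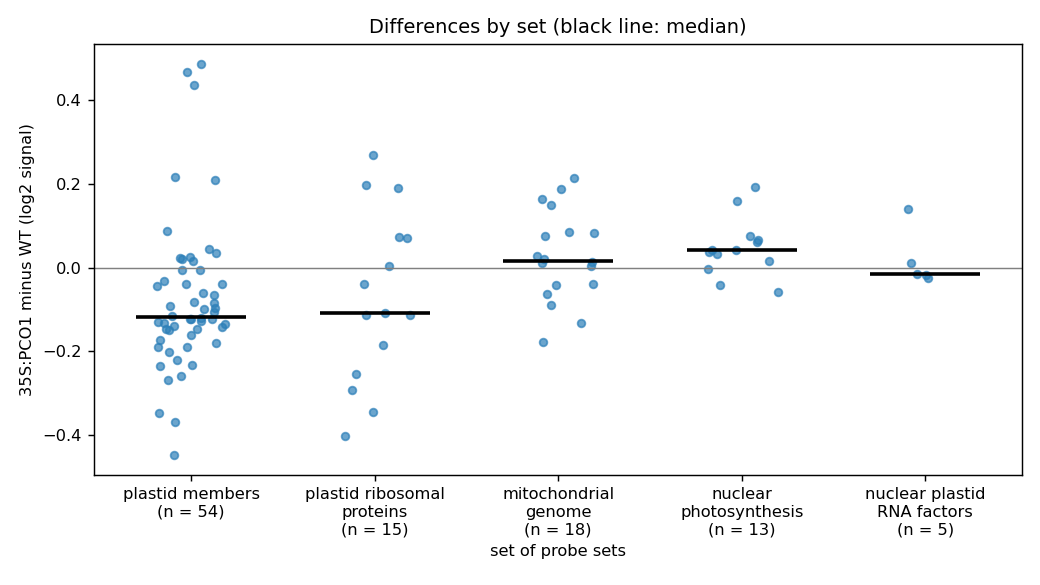
Difference in log2 signal between 35S:PCO1 and wild type (y axis) for 54 plastid members, 15 plastid ribosomal protein genes, 18 mitochondrial genome probe sets, 13 nuclear photosynthesis genes and 5 nuclear genes for plastid RNA (x axis); each point is 1 probe set and black lines are medians. Medians are -0.12, -0.11, 0.02, 0.04 and -0.01 in that order.

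Markers of the leaf and of other tissue were checked beside these values. RCA, the Rubisco activase of green cells, averaged 13.49 (log2 signal, n = 3) in wild type and 13.53 in 35S:PCO1. The senescence markers SAG101, WRKY53 and SAG29 differed by 0.15, 0.02 and 0.04, the guard cell gene FMA by 0.04 and the vascular gene SWEET11 by -0.12. PYK10 and EXPA7, which are typical of roots, differed by -0.45 and 0.19. None of these passed the test, their part in the plastid values was not tested, and no epidermis, flower or seed marker was measured. The probe set for PCO1 is not named by the annotation, so the transgene was not checked against the labels.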

How the data were processed

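Total RNA of rosettes was labelled with biotin for Affymetrix Arabidopsis GeneChips (per the labels' protocols). The deposited values are log2 signals from RMA, 1 for each probe set in each array, per the submitters' processing notes; the version, and which arrays were summarised together, are not given in the sources used here. The range of the values fits a log2 scale. RMA gives no detection call and equalises the arrays' distributions.

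Of 22810 probe sets, 64 controls were left out. Names came from GEO's platform annotation (13513 probe sets with 1 gene, 503 with several, 8730 with none), with loci from RefSeq's table of TAIR10.1. Genotypes were compared with limma 3.58.1 (lmFit, eBayes, prior degrees of freedom 5.35, two-sided, no covariate) in R 4.3.3, with Benjamini-Hochberg adjustment over 22746 probe sets. The procedure was tested on simulated data. Precision is limited by the number of arrays, with a median SE of 0.0648 over all tested probe sets and 0.0821 over the 54 plastid ones. In nuclear lists, the probe set with the highest mean stood for its gene. Members and lists were chosen with earlier results of these data known. Values in every array are given for the 5 plastid genes with the smallest p in each direction and the one with the highest mean in each class; psaC and matK were added after their values were seen. Of each list up to 4 genes with the smallest p were to be named. The alternatives were filters on dim probe sets, 3 other scalings (median, quantile, cyclic loess), other priors, array weights, a replicate block, an adjusted p of 0.1 and leaving out each array.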

Additional observations from a re-analysis of the deposited data

How the results depend on the processing

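The count of plastid transcripts past the threshold was 0 of 54, with 16 at an unadjusted p under 0.05 by limma. It stayed 0 when the dimmest 20% or 40% of probe sets were dropped (1.01% and 1.17% of all passed). With each of 3 other scalings it also stayed 0 (0.835% to 0.972% of all passed). By an ordinary t statistic 7 had p under 0.05 before adjustment, but 0 of all tested probe sets passed. The unchanged count with that statistic therefore says nothing particular about the plastid members. The count was 2 with a trended robust prior (psaI and psaB, where 1.07% of all tested probe sets passed) and 13 with array weights (9.74% of all). It was 1 with the replicate number as a block (psaI, at an adjusted p of 0.0437, where 1% of all passed). At an adjusted p under 0.1 it was 1 (psaI, where 1.87% of all passed). Leaving out 1 array gave 0 to 1, where 0.022% to 2.15% of all tested probe sets passed. For these shifts the cause was not tested. The median difference of the 54 ran from -0.13 to -0.10 over the settings that leave out no array, and from -0.18 to -0.05 when 1 array was left out. When 1 array was left out, the medians by class ran from -0.32 to -0.11 for photosystem I, -0.13 to -0.018 for photosystem II, -0.15 to -0.00084 for cytochrome b6f, -0.11 to 0.017 for NDH, -0.24 to -0.087 for the ATP synthase, -0.25 to -0.055 for the RNA polymerase and -0.22 to -0.13 for other functions. The 17 named members kept sign and side of the threshold in 236 of 254 alternatives, passed in 13 and changed sign in 5: ccsA (0.02) became -0.0038 with cyclic loess and -0.011 with array weights, and ran from -0.036 to 0.060 when 1 array was left out. The difference of rbcL then ran from -0.21 to 0.0078. rpoB was left out by the filter that drops the dimmest 40%. No pairing of the arrays by replicate number was seen: deviations from the group means had r of -0.06, -0.08 and -0.02 for replicates 1, 2 and 3, no label ties a number to a shared batch, and 0 arrays had their highest r with the array of the same number.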

Other observations

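The probe sets for plastid genes that lie in the inverted repeat, and are therefore paired with 2 gene copies, also did not pass the test. ycf2, for a large protein of the chloroplast import motor, had 5.57, 5.65 and 5.71 in replicates 1, 2 and 3 of wild type and 5.88, 5.83 and 5.89 in 35S:PCO1. Its groups did not overlap, at a difference of 0.22 (SE 0.06, limma adjusted p = 0.136), and wild-type replicate 3 was its highest wild-type array, unlike most plastid members. ndhB, for a membrane subunit of the NDH complex, had 5.89, 5.78 and 5.89 in wild type and 6.15, 5.96 and 6.37 in 35S:PCO1, without overlap and with a difference of 0.31 (SE 0.09, limma adjusted p = 0.202). ycf1, for a protein of the inner envelope, had 9.94, 9.85 and 9.65 in wild type and 9.61, 9.63 and 9.53 in 35S:PCO1, a difference of -0.22 (SE 0.08) without overlap.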
